A study of Rattus norvegicus with 33 samples.

Results

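Gene expression in rat dorsal root ganglia (DRG) was examined at the earliest time point of the study, 1 day post-surgery (dps), where 12 of the 33 arrays of the series were taken: 4 each from rats given no sponge, vehicle/ACS and rhBMP-2/ACS. The 12 arrays were chosen by their labelled time point alone, and all pairs of the 3 treatments were compared. The animals were female Sasco/Sprague-Dawley rats of 13 weeks, and all 3 groups underwent the same incision over the lumbar spine. In the rhBMP-2/ACS group 2 absorbable collagen sponges (ACS, bovine type I collagen), which together carried 80 µg of recombinant human bone morphogenetic protein-2, were laid beside the spine on one side, in the vehicle/ACS group the sponges carried only the buffer, and in the no sponge group nothing was implanted. RNA came from the ganglia at L4 and L5, and for the arrays the samples of best quality and highest concentration were picked by the authors. Each array held the RNA of 1 rat, hybridized to an Illumina BeadChip, and the same 3 treatments were also sampled at 3 dps (9 arrays) and 7 dps (12 arrays).

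The DRG holds the cell bodies of the sensory neurons that carry touch, temperature and pain from the body, each wrapped by satellite glia, with Schwann cells around the axons and resident macrophages, vessels and connective tissue between them. BMP-2 is a secreted ligand that binds paired type I and type II serine/threonine kinase receptors; the receptors phosphorylate Smad proteins, which with Smad4 enter the nucleus and switch on target genes such as those of the Id family. Injury to tissue near a nerve is known to bring immediate early transcription factors, acute phase proteins and, within hours, neutrophils, while macrophages and the neuropeptide response of injured neurons follow later.

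Of the 22523 probes on the array, 10497 gave a detection p-value below 0.05 in at least 75% of the arrays of 1 or more of the 3 groups and were kept. Of these, 7732 carried a gene symbol, for 7610 genes. Levels below are log2 intensities after background correction and quantile normalization over the 12 arrays, so that a difference of 1 is a doubling, and the level of 1 probe cannot be set against that of another. Single arrays detected between 10142 and 10854 probes, and this number did not separate the groups (exact permutation test, two-sided, p = 0.543 to 0.857 for the 3 pairs, adjusted p = 0.857 for each; 4 against 4 arrays cannot go below 0.0286).

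The arrays carried the RNA of sensory ganglia. Of 17 neuron and glia markers that were on the array, 15 were detected on all 12 arrays. Uchl1, a ubiquitin hydrolase abundant in neurons, lay between 12.73 and 12.99, Scn10a, the sodium channel of nociceptors, between 12.88 and 13.29, and Pmp22, a myelin protein of Schwann cells, between 14.01 and 14.41. These ranges were narrow and spanned all 3 treatments. The exceptions were the probes for Calca, the precursor of the nociceptor peptide CGRP, which was detected on none of the 12 arrays, and Kcnj10, a potassium channel of satellite glia, which was detected on 1. Neither probe was used further. Markers of spinal cord oligodendrocytes, Mog, Mobp and Olig1, and of T cells, Cd3e and Cd3d, were detected on none of the 12 arrays, and Olig2, also of oligodendrocytes, on 3. Other members of these lists were detected. Of 11 spinal cord glia genes on the array 3 were kept (Ermn, Sox8 and Aldoc), 2 of them detected on all 12 arrays. Their mean level lay between 7.84 and 8.27. Of 17 lymphocyte genes on the array 3 were kept, 0 of them detected on all 12.

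The first comparison asked whether BMP-2 adds to the effect of the sponge. Between rhBMP-2/ACS and vehicle/ACS no probe passed an adjusted p of 0.05 (0% of the 10497 tested by limma with Benjamini-Hochberg adjustment), the lowest adjusted p being 0.967. At an unadjusted p below 0.05 there were 230 probes higher (2.19%) and 282 lower (2.69%), 512 in all, where 5% of the probes tested would be 525. At the thresholds used in the study, a fold change of 1.66 and an unadjusted p below 0.1, 15 probes remained (0.143%), 12 higher and 3 lower. The precision was such that for 98.8% of probes the whole 95% interval of the difference lay within a 2-fold change in either direction, with a median half-width of 0.23.

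The direct targets of BMP signalling were followed first. Of 27 listed target genes, 12 were kept, and none of them passed the test. 9 of the 12 had positive differences, with a median of 0.11 against 0.00 over all probes tested. Id1, an inhibitor of basic helix-loop-helix factors and a classic Smad target, measured 7.87, 7.90, 7.85 and 8.20 without a sponge. It measured 7.96, 7.84, 8.11 and 7.94 with vehicle/ACS and 7.96, 8.38, 8.57 and 8.03 with rhBMP-2/ACS. Only rhBMP-2/ACS replicates 2 and 3 stood above all arrays of the other groups, and the groups overlapped. The difference to vehicle/ACS was 0.27 ± 0.13 (SE; adjusted p = 0.967), and 0.16 without rhBMP-2/ACS replicate 3. Its relative Id2 measured 10.22, 10.32, 10.33 and 10.29 with vehicle/ACS against 10.40, 10.50, 10.78 and 10.39 with rhBMP-2/ACS. The 4 rhBMP-2/ACS arrays were all above the 4 vehicle/ACS arrays, although a no sponge array at 10.44 fell among them, and the difference of 0.23, or 0.14 without rhBMP-2/ACS replicate 3, did not pass (adjusted p = 0.967). Id3 gave a difference of 0.19 ± 0.15 (adjusted p = 0.973), which was 0.07 without rhBMP-2/ACS replicate 3 and 0.33 without rhBMP-2/ACS replicate 4.

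Other targets did not follow one direction. Hamp, the iron hormone hepcidin and a BMP target in liver, differed by 0.53 ± 0.30 (SE; adjusted p = 0.968), with 9.17 in rhBMP-2/ACS replicate 3 and 7.46 to 7.64 in the other 3 arrays of that group, and by 0.13 without that array. Hey1, a transcriptional repressor, differed by -0.32 and Grem1, a secreted BMP antagonist, by -0.32 (adjusted p = 0.967 for each). Neither passed the threshold, and Grem1 differed by -0.20 without vehicle/ACS replicate 3. The inhibitory Smads, Smad6 and Smad7, are feedback targets of the pathway, and their probes were detected on 4 and 0 of the 12 arrays and were not kept. The machinery to receive the signal was measured: 20 of 31 listed ligands, receptors and Smads were kept, Smad1 between 8.11 and 8.65 on all arrays, and none passed the test. Their median difference between rhBMP-2/ACS and vehicle/ACS was 0.04, with the type II receptor Bmpr2 at 0.26 ± 0.12 (adjusted p = 0.967).

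Genes of the interferon response had mostly negative differences between rhBMP-2/ACS and vehicle/ACS, 19 of the 24 kept, with a median of -0.17. The other 5 were positive and reached 1.25, larger in size than the lowest difference of the list, -0.69. At an unadjusted p below 0.05 there were 6 of the 24, all lower, where 2.69% of all probes were lower. No gene of the list passed the adjusted test. Oasl2, an oligoadenylate synthetase-like protein induced by interferon, measured 7.33, 7.37, 7.73 and 7.64 with vehicle/ACS and 7.16, 7.02, 6.87 and 6.43 with rhBMP-2/ACS. All rhBMP-2/ACS arrays lay below all 4 vehicle/ACS arrays and also below the no sponge arrays, which measured 7.35, 7.36, 7.78 and 7.44. The differences were -0.65 to vehicle/ACS (adjusted p = 0.967) and -0.61 to no sponge (adjusted p = 0.53). Oasl2 was not in the list and was named by its size. The antiviral GTPase Mx1 measured 8.19, 7.39, 8.28 and 8.31 with vehicle/ACS against 7.44, 7.19, 7.62 and 7.39 with rhBMP-2/ACS, so that vehicle/ACS replicate 2 lay within the rhBMP-2/ACS group. Its difference was -0.63 ± 0.18 (adjusted p = 0.967) and that of Mx2 was -0.69. The transcription factor Irf7 and the chemokine Cxcl10 differed by -0.49 and -0.51, both with overlapping groups, and Cxcl10 by -0.31 without vehicle/ACS replicate 3.

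Among genes whose groups did not overlap, 143 probes were higher (1.36%) and 159 lower (1.51%) with rhBMP-2/ACS than with vehicle/ACS, 2.88% in all. Chance alone gives 2.86% for 4 against 4 arrays, so that a lack of overlap in a single gene is weak evidence. The 5 highest named genes were Ass1, argininosuccinate synthase (0.57), Galnt17, a glycosyltransferase, Col2a1, the collagen of cartilage (0.46), Pde4d, a cAMP phosphodiesterase (0.45), and Ephb3, an ephrin receptor. Col2a1 measured 5.33, 5.45, 5.54 and 5.63 with vehicle/ACS and 5.76, 6.08, 5.89 and 6.08 with rhBMP-2/ACS, but the no sponge arrays at 6.06, 5.93, 5.51 and 5.83 spanned both groups. Galnt17 and Ephb3 were not above background on any vehicle/ACS array. Their means with rhBMP-2/ACS lay 1.18-fold and 1.17-fold above the lowest detectable level, values that have no SE and do not bound the true difference. Bglap, which encodes the bone protein osteocalcin, measured 5.98, 5.58, 5.42 and 6.19 with vehicle/ACS and 6.43, 6.38, 6.04 and 6.65 with rhBMP-2/ACS, and its groups overlapped (difference 0.58 ± 0.16, adjusted p = 0.967). The 5 lowest were Oasl2, Tmem255a (-0.61), Sh3bgrl1 (-0.50), Mfsd8, a lysosomal transporter (-0.50), and Itga11, a collagen-binding integrin (-0.49). None of these 10 genes passed the adjusted test.

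The second comparison, vehicle/ACS against no sponge, asked what the sponge soaked in buffer did. The no sponge rats received neither, so that effects of the collagen and of the buffer cannot be told apart. A single probe passed (0.00953% of those tested), that of Serpine2 (glia-derived nexin, an inhibitor of thrombin and other serine proteases secreted by glia). Serpine2 measured 8.89, 9.39, 8.84 and 8.94 in the no sponge arrays, 7.83, 7.91, 8.04 and 7.85 with vehicle/ACS, and 7.59, 7.77, 7.91 and 7.69 with rhBMP-2/ACS. Every array with a sponge lay below every array without one, and the 2 sponge groups overlapped. The level fell by 1.11 ± 0.11 (SE) with vehicle/ACS, a 2.16-fold change (limma, adjusted p = 0.00118), and by 1.28 ± 0.11 with rhBMP-2/ACS, a 2.43-fold change (adjusted p = 0.000193). These share the same 4 no sponge arrays. The 2 sponge groups differed by -0.17 ± 0.11 (adjusted p = 0.968). Serpine2 was detected on all 12 arrays and stayed below an adjusted p of 0.05 when any single array was left out, with adjusted p between 0.000748 and 0.00913 for vehicle/ACS. In a fit of all 33 arrays as 9 groups, where the arrays of the later days set the spread, the differences were -1.16 (adjusted p = 0.452) and -1.33 (adjusted p = 0.133), and the call was lost, as it was in an unmoderated test with unequal variances (adjusted p = 1.00 and 0.691).

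**Figure D1:**
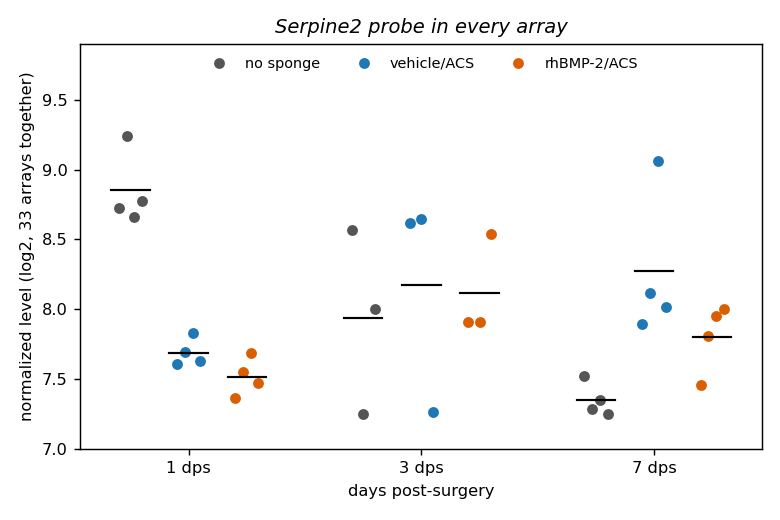
Serpine2 level (log2, y axis, normalized over all 33 arrays together) by days post-surgery (x axis), with 1 point for each array, coloured by treatment, and a bar at each group mean. At 1 dps the 4 no sponge arrays lie above all 8 sponge arrays, whereas at 7 dps the 4 no sponge arrays are among the lowest and at 3 dps the groups overlap.

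Serpine2 did not keep this order of the groups on the later days. Normalized over all 33 arrays, it measured 8.57, 7.25 and 8.00 without a sponge at 3 dps, 8.62, 8.65 and 7.27 with vehicle/ACS, and 7.91, 7.91 and 8.54 with rhBMP-2/ACS. At 7 dps the no sponge arrays measured 7.52, 7.29, 7.35 and 7.25 and those with vehicle/ACS 7.89, 8.12, 9.06 and 8.02. At 7 dps the order of these groups was thus the opposite of that at 1 dps. The effect of vehicle/ACS against no sponge differed by -2.08 between 1 and 7 dps (interaction term in the fit of 9 groups, adjusted p = 0.00104), and that of rhBMP-2/ACS against no sponge by -1.79 (adjusted p = 0.0119).

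For the remaining probes of vehicle/ACS against no sponge the second lowest adjusted p was 0.996. There were 230 probes higher (2.19%) and 232 lower (2.21%) at an unadjusted p below 0.05, and 25 at the thresholds of the study (0.238%), of which 21 were lower. Genes of granulocytes were 4 of the 5 named genes with the lowest differences, Serpine2 being the other. Of 18 listed granulocyte genes on the array 7 were kept, 6 of the 7 had negative differences and an unadjusted p below 0.05, and the groups of 5 did not overlap. Rnase3 and Np4 were kept only through the no sponge arrays, where they were high, so that these counts are not independent of the filter. The list and its members were also chosen with earlier results of these data known. Its counts and its median are thus a description and not independent support. No probe of the list passed the adjusted test. The median of the list was -1.08 against 0.00 over all probes. RatNP-3b, a neutrophil defensin outside the list, measured 7.03, 6.80, 7.60 and 9.02 without a sponge, 5.67, 5.93, 6.54 and 5.82 with vehicle/ACS and 6.61, 7.45, 5.93 and 7.22 with rhBMP-2/ACS. The vehicle/ACS arrays all lay below the no sponge arrays, those with rhBMP-2/ACS overlapped both, and the difference was -1.62 ± 0.42 (adjusted p = 0.996).

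The same pattern was seen in the defensin Defa5, which measured 7.22, 7.02, 7.59 and 9.03 without a sponge and 6.34, 6.03, 6.65 and 6.55 with vehicle/ACS (difference -1.32 ± 0.36, adjusted p = 0.996). S100a8, a calcium-binding protein abundant in neutrophils, measured 7.30, 7.63, 8.36 and 9.30 without a sponge and 6.66, 6.67, 7.74 and 7.20 with vehicle/ACS, so that its groups overlapped (difference -1.08 ± 0.35, adjusted p = 0.996, and -0.70 without no sponge replicate 4). In all 3 genes the highest of the 12 values was that of no sponge replicate 4. Rnase3, an eosinophil ribonuclease, and Np4, another defensin, were not above background on any vehicle/ACS array. Their mean levels without a sponge lay 1.65-fold and 1.45-fold above the lowest detectable level. These values have no SE and do not bound the true difference. Neither gene passed the adjusted test, and both were kept only through the no sponge arrays. Camp, the antimicrobial cathelicidin, measured 5.64, 5.75, 5.66 and 5.88 without a sponge and 5.21, 5.23, 5.51 and 5.18 with vehicle/ACS, without overlap (difference -0.45 ± 0.10, adjusted p = 0.996). The mean level of the list was 7.40 in no sponge replicate 4 against 6.18 to 6.69 in the other 3 no sponge arrays, 5.80 to 6.16 with vehicle/ACS and 6.09 to 6.39 with rhBMP-2/ACS. Without no sponge replicate 4 the median difference was -0.40. The haemoglobin genes were also highest in that array, with 13.09 for Hbb against 11.63 to 13.01 elsewhere, and the part of blood in the granulocyte difference was not tested. The defining markers S100a9 and Elane were detected on none of the 12 arrays. In whole ganglia, fewer cells of a type and less RNA per cell cannot be told apart.

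**Figure D2:**
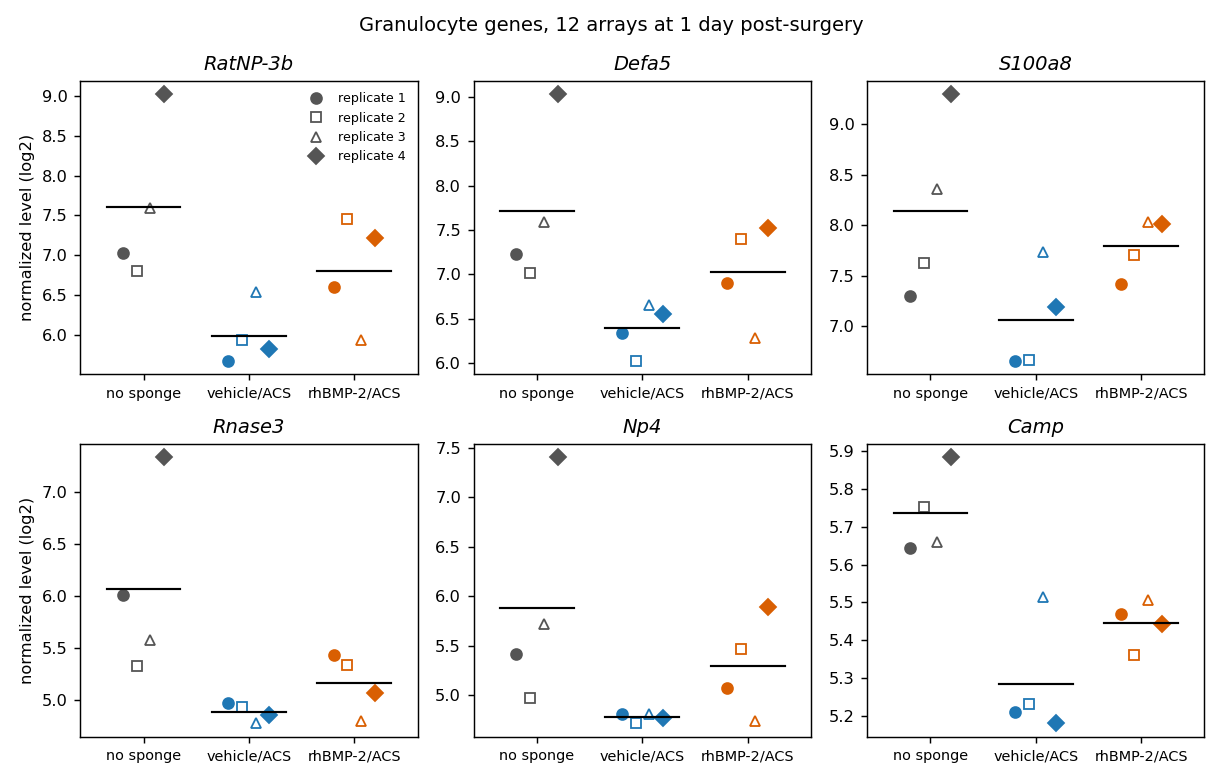
Levels (log2, y axis) of 6 granulocyte genes on the 12 arrays at 1 dps, by treatment (x axis), with 1 symbol shape for each replicate number and a bar at each group mean. No sponge replicate 4 (filled diamond) is the highest of the 12 arrays in all 6 panels, for example 9.02 for RatNP-3b, and the vehicle/ACS mean is the lowest of the 3 group means in each panel.

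Some genes of the connective tissue around the ganglion gave smaller negative differences. Col14a1, a fibril-associated collagen, measured 9.86, 9.66, 9.45 and 9.72 without a sponge and 9.16, 8.73, 9.09 and 9.35 with vehicle/ACS, without overlap (difference -0.59 ± 0.15, adjusted p = 0.996). Igf2, an insulin-like growth factor, measured 9.11, 8.62, 9.03 and 8.77 against 8.48, 8.16, 8.35 and 8.39, also without overlap (difference -0.54 ± 0.15, adjusted p = 0.996). Neither passed the adjusted test, and over the 32 kept genes of the extracellular matrix list the median was -0.03. Igf2 with rhBMP-2/ACS measured 8.31, 8.95, 8.37 and 8.94 and overlapped both other groups. Ptgds, prostaglandin D2 synthase of the meninges, differed by -0.63 between vehicle/ACS and no sponge and by 0.80 between rhBMP-2/ACS and vehicle/ACS, both of which contain vehicle/ACS replicate 2, at 10.32 against 11.41 to 12.55 on the other 11 arrays. Without that array the differences were -0.32 and 0.49.

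The positive differences included genes with like values in both sponge groups, which share the no sponge arrays as their control. Vps37b, a subunit of the ESCRT-I sorting complex, measured 6.03, 5.92, 5.94 and 5.82 without a sponge, 6.64, 6.22, 6.38 and 6.47 with vehicle/ACS and 6.20, 6.32, 6.65 and 6.62 with rhBMP-2/ACS. All 8 sponge arrays were above all 4 arrays without one, with differences of 0.50 ± 0.12 (adjusted p = 0.996) and 0.52 ± 0.12 (adjusted p = 0.53). Igfbp2, an insulin-like growth factor binding protein, measured 10.37, 10.52, 10.40 and 10.16 without a sponge, 10.54, 11.10, 11.04 and 10.74 with vehicle/ACS and 10.52, 10.56, 11.11 and 11.11 with rhBMP-2/ACS. Its lowest sponge arrays touched the highest no sponge array, and the differences were 0.49 and 0.46. Bdnf, a neurotrophin that sensory neurons make and that acts on pain pathways, measured 7.60, 7.52, 7.66 and 7.45 without a sponge, 7.79, 8.21, 8.09 and 7.84 with vehicle/ACS and 7.76, 7.61, 8.08 and 8.30 with rhBMP-2/ACS. With vehicle/ACS Bdnf did not overlap with no sponge (difference 0.43 ± 0.14, adjusted p = 0.996), and with rhBMP-2/ACS 1 array did (0.38 ± 0.14, adjusted p = 0.601). Farp1, a guanine nucleotide exchange factor, and Bcas2, a splicing factor, differed by 0.64 and 0.46 between vehicle/ACS and no sponge, Farp1 by 0.42 without no sponge replicate 3. None of the 5 passed the adjusted test. The groups did not overlap for 140 probes higher with vehicle/ACS (1.33%) and for 140 lower (1.33%), 2.67% in all, where chance gives 2.86%.

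The third comparison, rhBMP-2/ACS against no sponge, held the widest distribution of differences. Serpine2 was again the 1 probe that passed (0.00953%). At an unadjusted p below 0.05 there were 383 probes higher (3.65%) and 451 lower (4.30%), 834 in all, where 5% of the probes tested would be 525. The thresholds of the study were reached by 22 (0.21%). The groups did not overlap for 222 probes that were higher (2.11%) and 236 that were lower (2.25%), 4.36% in all, where chance gives 2.86%. Whether these counts exceed chance was not tested. The lowest adjusted p after Serpine2 was that of Wls, the carrier that takes Wnt ligands to the cell surface. Wls measured 9.09, 9.06, 9.09 and 9.02 without a sponge, 8.97, 8.73, 8.89 and 8.88 with vehicle/ACS and 8.65, 8.75, 8.67 and 8.64 with rhBMP-2/ACS. It was lower in both sponge groups without overlap with no sponge, and the difference of -0.39 ± 0.07 did not pass (adjusted p = 0.193). Tgfbr3, a co-receptor for TGF-β and BMP ligands, differed by -0.52 ± 0.12 (adjusted p = 0.53), with values of 5.90, 5.86, 5.58 and 6.08 against 6.25, 6.24, 6.50 and 6.51 without a sponge. Its groups did not overlap.

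The highest differences of rhBMP-2/ACS to no sponge did not pass the test. Gfap, the intermediate filament that satellite glia make when activated, measured 9.60, 9.44, 9.96 and 10.08 without a sponge and 10.12, 10.15, 10.31 and 11.16 with rhBMP-2/ACS, without overlap (difference 0.66 ± 0.25, adjusted p = 0.601). With vehicle/ACS it ranged from 9.60 to 10.67 and overlapped both. Myd88, the adaptor of Toll-like receptors, measured 6.69, 6.40, 6.90 and 6.43 against 6.95, 7.09, 7.33 and 7.41 (difference 0.59 ± 0.18, adjusted p = 0.544). Gadd45g, a growth arrest gene, measured 8.18, 7.54, 7.96 and 8.04 against 8.20, 8.29, 8.70 and 8.81 (difference 0.57 ± 0.19, adjusted p = 0.567). Neither pair of groups overlapped. Upp1, uridine phosphorylase, and Tmem176a, a membrane protein, differed by 0.61 and 0.83 (adjusted p = 0.624 for each). Without no sponge replicate 3, at 6.97, the difference of Tmem176a was 0.50, and without rhBMP-2/ACS replicate 4, at 11.16, that of Gfap was 0.42.

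The genes with the lowest differences to no sponge after Serpine2 were Aspn, asporin, a small matrix proteoglycan that binds TGF-β and BMP-2 (-0.70), Oasl2, Tmx4, a thioredoxin-like protein of the endoplasmic reticulum (-0.56), and Degs2, a ceramide desaturase (-0.55). Aspn measured 6.56, 5.95, 6.31 and 6.19 without a sponge and 5.70, 5.93, 5.36 and 5.23 with rhBMP-2/ACS. The lowest no sponge array lay just above the highest rhBMP-2/ACS array, and the difference did not pass (adjusted p = 0.53). The haemoglobin genes Hbb and Hbb-b1 differed by -0.58 and -0.69, and over the 5 erythroid genes kept the median was -0.58.

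Immediate early genes, the transcription factors that neurons and glia induce within minutes of a stimulus, gave small differences of one sign when both sponge groups were set against the same no sponge arrays. Of 22 genes kept, 20 were higher with vehicle/ACS (median 0.17) and 21 with rhBMP-2/ACS (median 0.22), and none passed. Over all probes the medians were 0.00. With array medians equalized in place of quantiles the medians of the list were 0.05 and 0.12, and that for vehicle/ACS was 0.09 without vehicle/ACS replicate 3, 0.10 without vehicle/ACS replicate 2, 0.11 without no sponge replicate 2 and 0.27 without vehicle/ACS replicate 4. Fos measured 9.83, 8.43, 8.00 and 7.91 without a sponge, 9.59, 8.47, 9.83 and 8.27 with vehicle/ACS and 8.72, 9.44, 9.46 and 8.63 with rhBMP-2/ACS. No sponge replicate 1 reached the highest level of any sponge array, so that the groups overlapped, with differences of 0.50 ± 0.41 and 0.52 ± 0.41 (adjusted p = 0.996 and 0.794). With single arrays left out these ranged from 0.24 (without vehicle/ACS replicate 3) to 0.93 (without no sponge replicate 1) for vehicle/ACS, and from 0.31 (without no sponge replicate 4) to 0.95 (without no sponge replicate 1) for rhBMP-2/ACS. The mean level of the list was 8.56 in no sponge replicate 1 and 8.16 to 8.28 in the other 3. It was 8.10 in vehicle/ACS replicate 4, the lowest of the 12 arrays, and 8.79 in rhBMP-2/ACS replicate 3, the highest.

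Of 26 genes that the study text or its primer list names, 25 were on the array and 15 were kept. None passed in any of the 3 comparisons. Between rhBMP-2/ACS and vehicle/ACS 11 of the 15 were positive, with a median of 0.13 and no unadjusted p below 0.05. Ptgs2, the inducible cyclooxygenase COX-2, measured 5.49, 6.13, 6.36 and 5.07 with vehicle/ACS and 5.53, 5.35, 7.58 and 5.87 with rhBMP-2/ACS. A single array, rhBMP-2/ACS replicate 3, was above all others, and the difference of 0.32 ± 0.40 had an adjusted p of 0.973. Without that array it was -0.18. Ccl2, the monocyte chemokine, measured 8.97, 8.92, 9.00 and 8.66 without a sponge, 8.50, 9.60, 9.61 and 9.05 with vehicle/ACS and 9.13, 8.78, 9.62 and 9.76 with rhBMP-2/ACS. The highest arrays, from 9.60 to 9.76, were all sponge arrays of either kind, but the groups overlapped and the difference of rhBMP-2/ACS to no sponge was 0.44 ± 0.24 (adjusted p = 0.676), and 0.29 without rhBMP-2/ACS replicate 4. The nociceptor genes Tac1 and Trpv1 stayed within 11.93 to 12.28 and 10.19 to 10.75 on all 12 arrays.

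Over all 37 gene lists, no gene of any list passed the test. The lists were chosen with earlier results of these data known, so that their medians are a description. The list medians lay within 0.1 of 0 in 28 lists for rhBMP-2/ACS against vehicle/ACS, in 30 for vehicle/ACS against no sponge and in 25 for rhBMP-2/ACS against no sponge. The largest medians were those of the granulocyte list between vehicle/ACS and no sponge, of the erythroid list between rhBMP-2/ACS and no sponge, and of the granulocyte list in the same pair, at -0.35. They were followed by the erythroid list between rhBMP-2/ACS and vehicle/ACS (-0.33) and the skeletal muscle list between rhBMP-2/ACS and no sponge (0.31).

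**Figure D3:**
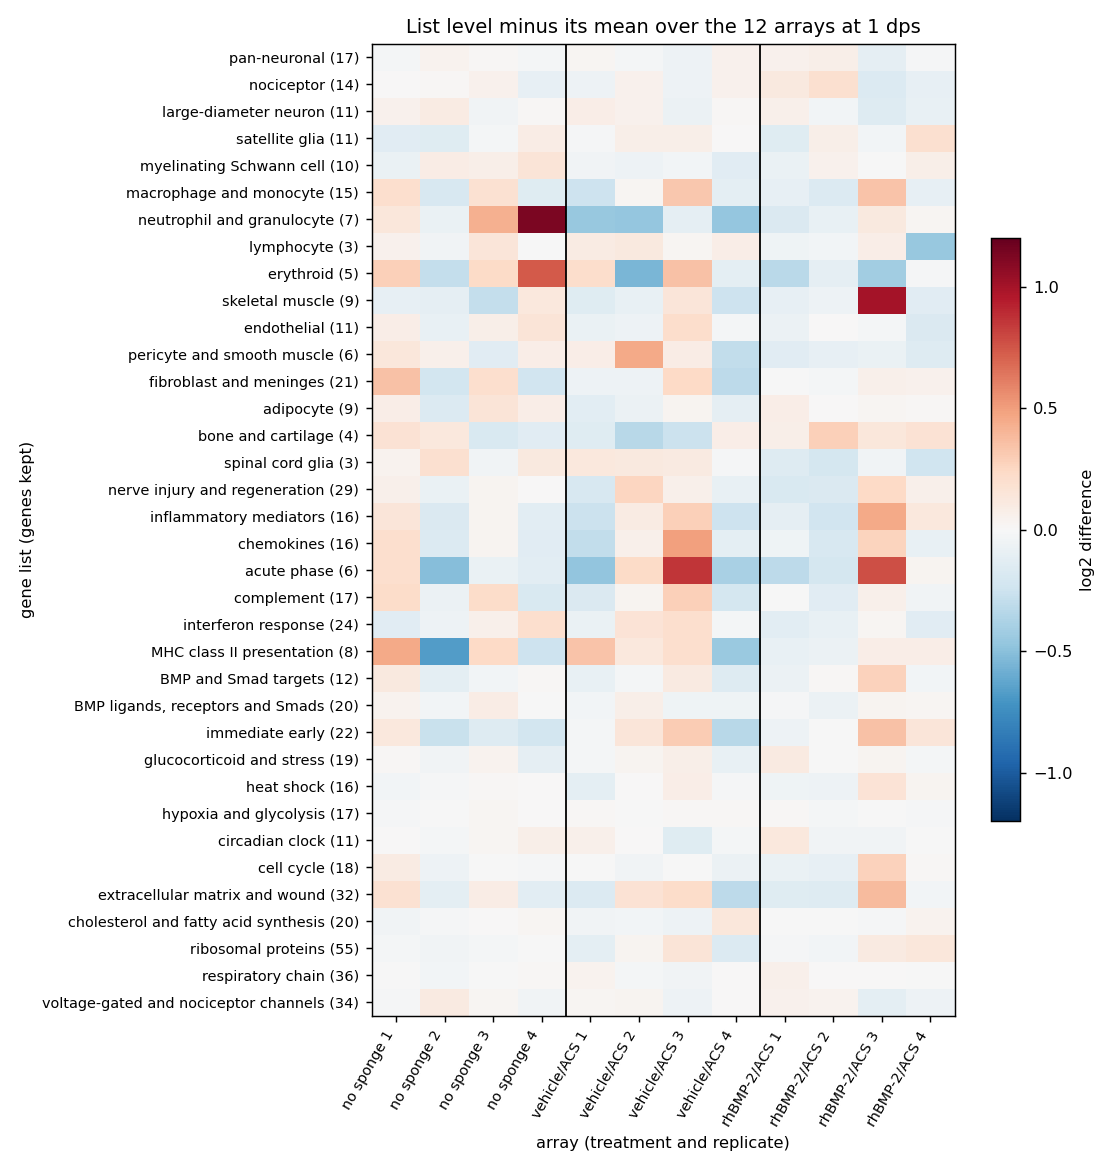
Mean level of each gene list on each array minus its mean over the 12 arrays at 1 dps (colour, log2), with lists in rows (number of genes kept in parentheses) and arrays in columns, separated by treatment. The strongest colours are single cells rather than blocks of a treatment: granulocyte genes in no sponge replicate 4 (7.40), skeletal muscle genes in rhBMP-2/ACS replicate 3 (7.50) and acute phase genes in vehicle/ACS replicate 3 (9.85) and rhBMP-2/ACS replicate 3 (9.76).

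The spread between arrays was thus examined on its own. Over probes, the median within-group standard deviation was 0.15, and it lay between 0.07 and 0.34 for the middle 90%. Correlations between arrays of the same group ranged from 0.985 to 0.993 (18 pairs, median 0.990), and those between arrays of different groups from 0.985 to 0.992 (48 pairs, median 0.989). Arrays of 1 treatment were not shown to be closer to each other than to the rest (exact permutation test over 5775 partitions, one-sided, p = 0.24). In pairs, only rhBMP-2/ACS and no sponge separated before adjustment (exact permutation test, one-sided, p = 0.0286, adjusted over the 3 pairs 0.0857). The first principal component, 19.4% of the variance, set vehicle/ACS replicate 3 (-14.8) and rhBMP-2/ACS replicate 3 (-13.8) against vehicle/ACS replicates 1 (13.1) and 4 (12.9), so that arrays of 1 group lay at both of its ends.

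Single arrays carried gene programs of their own. In rhBMP-2/ACS replicate 3 the mean of the skeletal muscle list was 7.50, against 6.22 to 6.65 on the other 11 arrays. Ckm, muscle creatine kinase, reached 8.55 there and 5.44 to 6.56 elsewhere, and Tnnc2, a fast muscle troponin, 8.31 against 5.27 to 6.35. The same array held the highest level of Ptgs2, Hamp and the immediate early list. Whether muscle in the dissected tissue bears on these was not tested. Acute phase genes were highest in vehicle/ACS replicate 3 (9.85) and rhBMP-2/ACS replicate 3 (9.76) and lay between 8.48 and 9.23 on the other 10 arrays. MHC class II genes, which antigen-presenting cells use, ranged from 7.14 to 8.26 among the 4 no sponge arrays, wider than the 7.72 to 7.89 of the rhBMP-2/ACS arrays. At the other extreme, the glycolysis and hypoxia list varied by 0.05 over all 12 arrays and the pan-neuronal list from 11.99 to 12.17.

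A second kind of spread lay in single probes whose values fell into 2 separate sets. In 18 probes, 11 of them with a symbol, the 12 values were split by a gap of at least 2 log2 units. Rpl30, a ribosomal protein of the large subunit, measured 11.55 and 11.03 in vehicle/ACS replicates 1 and 3 and 10.91 in rhBMP-2/ACS replicate 4, against 5.40 to 6.10 on the other 9 arrays. Rps9, of the small subunit, had 2 probes that were both low in vehicle/ACS replicates 1 and 4, at 5.28 and 5.08 on the first, where the other arrays lay between 9.12 and 12.62, and at 6.97 and 7.83 on the second, where they lay between 11.58 and 12.85. Ggcx, the vitamin K-dependent carboxylase, was at 5.09, 5.21 and 5.14 in replicate 1 of no sponge, replicate 1 of vehicle/ACS and replicate 3 of rhBMP-2/ACS, and between 8.49 and 9.23 elsewhere. Spock2, a matrix proteoglycan, was at 11.76 in no sponge replicate 2 and 12.34 in rhBMP-2/ACS replicate 3, and between 8.39 and 8.83 elsewhere. Only 4 of the 18 probes, Ggcx among them, had arrays on both sides of the gap in every treatment group. Both Rps9 probes were low only in vehicle/ACS arrays, and Rpl30 was high only in sponge arrays. Of the 18 probes, 11 also showed a gap of at least 2 among the arrays at 3 or 7 dps. Crh, the stress peptide corticotropin-releasing hormone, did not reach the gap of 2 and is not among the 18 probes. It lay between 6.65 and 7.72 on 7 arrays, with all 4 no sponge arrays among them, and between 4.53 and 4.69, not above background, on the other 5. Among the 15 genes with the largest within-group standard deviation, 9 entries were probes split by a gap of at least 2.

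**Figure D4:**
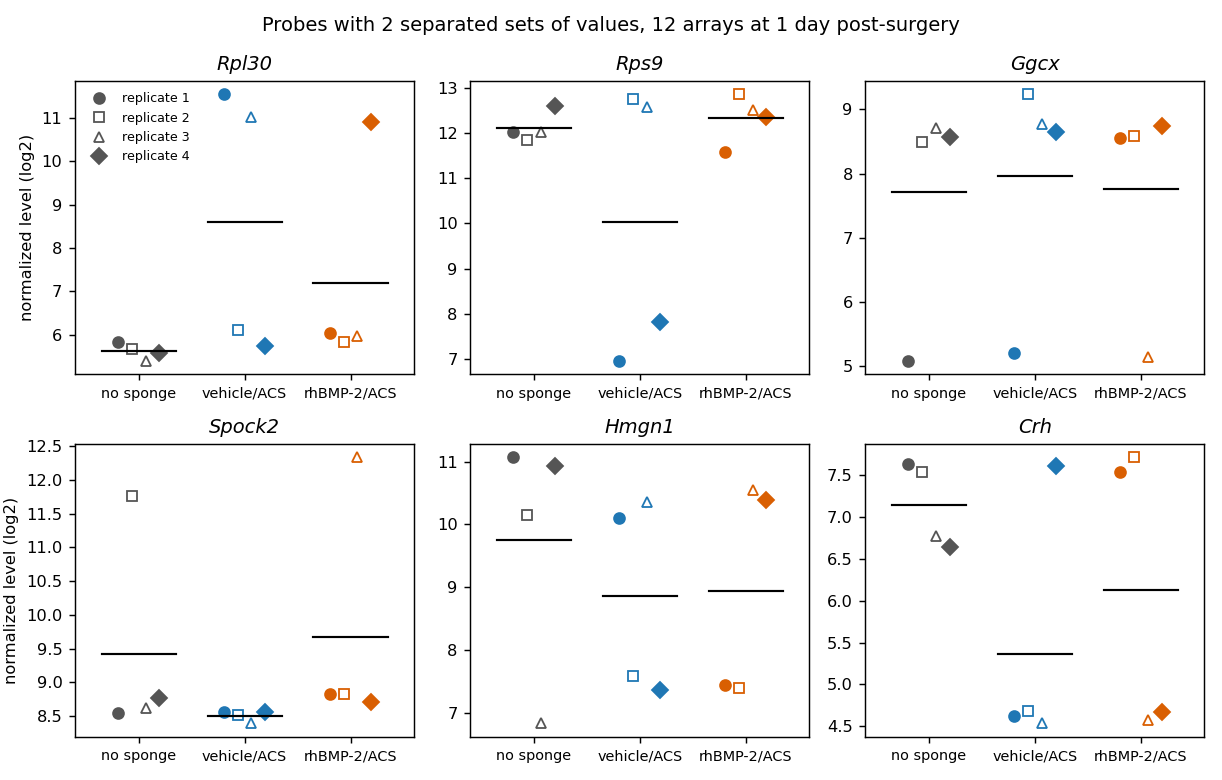
Levels (log2, y axis) of 6 probes on the 12 arrays at 1 dps, by treatment (x axis), with 1 symbol shape for each replicate number and a bar at each group mean. All but Crh were split by a gap of at least 2, and the low Crh values were not above background. For Rps9 the brighter of its probes is drawn. For Ggcx 1 array of each treatment lies near 5 and the other 9 above 8, so that the group means fall where no array lies.

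Against the later time points, the 1 dps arrays differed far more than the treatments did among themselves. Over the mean of the 3 treatments, 6459 of 12029 probes differed between 1 and 3 dps (53.7%; 3163 higher at 1 dps, 26.3%, and 3296 lower, 27.4%) and 8232 between 1 and 7 dps (68.4%; 3895 higher, 32.4%, and 4337 lower, 36.1%). The dimmest probe of each array read between 31.5 and 39.8 at 1 dps, but between 78.7 and 101.4 at 3 dps and between 70.7 and 80.8 at 7 dps. The scanner values at 1 dps were thus set apart from those of both later days, and time after surgery and hybridization cannot be told apart.

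List counts at 1 dps are set against the shares over all probes. Of these, 26.3% were higher and 27.4% lower than at 3 dps, and 32.4% higher and 36.1% lower than at 7 dps. Some acute phase genes were higher at 1 dps, 4 of 9 against either later day, with 1 of 9 lower. Whether this exceeds the shares was not tested. Of 34 genes of the extracellular matrix list 8 were higher and 9 lower than at 3 dps, near the shares. Against 7 dps 5 of them were higher and 17 lower (median -0.40). Lbp, the lipopolysaccharide-binding protein of the acute phase, ranged from 6.57 to 9.83 (median 7.73) on the 12 arrays at 1 dps, from 4.51 to 9.38 (median 6.36) at 3 dps and from 4.48 to 5.94 (median 4.91) at 7 dps. All arrays at 1 dps lay above all arrays at 7 dps, with differences of 1.52 ± 0.40 (SE, adjusted p = 0.002) to 3 dps and 2.83 ± 0.37 (adjusted p = 9.94e-08) to 7 dps. Most Lbp levels at 7 dps were close to background, so that the latter is not a measured fold. Chi3l1, a secreted chitinase-like protein of inflamed tissue, lay at 7.93 to 8.71 at 1 dps (median 8.40), with medians of 6.59 and 6.65 later, and differed by 1.49 and 1.84. Prg4 (lubricin), Mt1 (a metallothionein induced by glucocorticoids and metals), Actg2 (a smooth muscle actin) and Ccn1 (a matricellular protein induced by stretch and serum) were higher at 1 dps by 1.27 to 2.21 against either later day. Immediate early genes, 26 in this fit, were higher at 1 dps in 12 cases and lower in 2 against 3 dps, and in 20 and 2 cases against 7 dps.

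Neuropeptides of the injury response were lower at 1 dps. Npy, neuropeptide Y, ranged from 6.45 to 8.13 at 1 dps (median 6.98), from 7.05 to 9.85 at 3 dps (median 9.25) and from 7.37 to 10.97 at 7 dps (median 10.66). It differed by -1.94 ± 0.19 from 3 dps (adjusted p = 7.4e-10) and by -2.69 ± 0.18 from 7 dps (adjusted p = 8.42e-14). Vip, vasoactive intestinal peptide, ranged from 4.61 to 6.39 at 1 dps (median 5.08), with medians of 7.49 and 7.87 on the later days. It was 4.01-fold lower at 1 dps than at 3 dps and 3.47-fold lower than at 7 dps. Most Vip levels at 1 dps were close to background, so that these are not measured folds. The differences of Npy and Vip are of means over the 3 treatments. Without a sponge, Vip at 7 dps overlapped with its level at 1 dps, and the higher values at 7 dps were those of both sponge groups. Tgfb1, the growth factor TGF-β1, differed by -1.11 and -1.55, and Cd74, the invariant chain of MHC class II, by -1.81 from 7 dps. Of 29 cell cycle genes, 1 was higher and 15 were lower at 1 than at 3 dps, and 0 were higher and 20 lower than at 7 dps, where 27.4% and 36.1% of all probes were lower. Of 8 MHC class II genes 1 was higher and 1 lower than at 3 dps, and 7 were lower than at 7 dps.

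**Figure D5:**
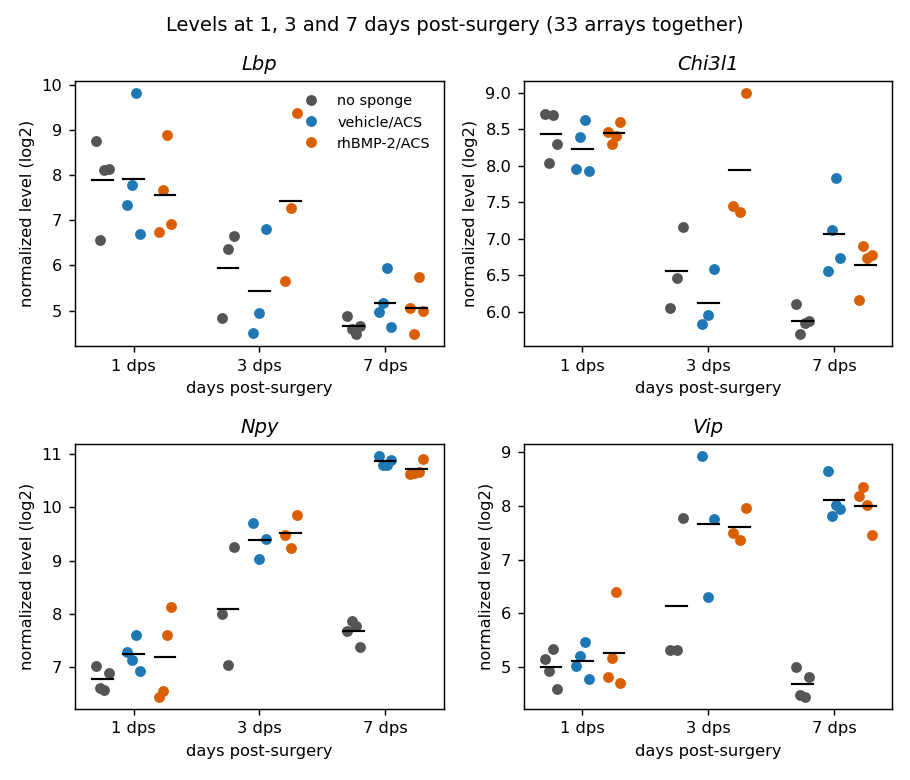
Levels (log2, y axis, normalized over all 33 arrays together) of Lbp, Chi3l1, Npy and Vip by days post-surgery (x axis), with 1 point for each array, coloured by treatment, and a bar at each group mean. The 3 treatments lie together at 1 dps for Npy (6.45 to 8.13), whereas at 7 dps the no sponge arrays lie below both sponge groups.

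The treatment effects at 1 dps were also tested against the same effects on the later days. The effect of rhBMP-2/ACS against vehicle/ACS differed between 1 and 3 dps for 140 probes (1.16%), 114 of them lower at 1 dps, and between 1 and 7 dps for 0 (0%; 633 at an unadjusted p below 0.05). Without rhBMP-2/ACS replicate 2 the 140 became 16, and without rhBMP-2/ACS replicate 3 they became 216. The effect of vehicle/ACS against no sponge differed between 1 and 3 dps for 0 probes (0%; 1029 at an unadjusted p below 0.05) and between 1 and 7 dps for 361 (3.00%), and without vehicle/ACS replicate 4 for 199. That of rhBMP-2/ACS against no sponge differed for 106 (0.881%) and 87 (0.723%) probes. Without rhBMP-2/ACS replicate 2 the 106 became 23, without rhBMP-2/ACS replicate 3 they became 187, and without no sponge replicate 1 the 87 became 52.

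Npy gave an effect of vehicle/ACS against no sponge of 0.47 at 1 dps and 3.19 at 7 dps, a difference of -2.72 (adjusted p = 0.000587), and Vip one of 0.12 and 3.41, a difference of -3.29 (adjusted p = 0.00218). Vip without a sponge was close to background on both days, so that its effects are not measured folds. Per2, a core gene of the circadian clock, gave -0.50 at 1 dps and 2.64 at 7 dps, a difference of -3.14 (adjusted p = 5.1e-08). Much of the Per2 change lay in the control group. Without a sponge Per2 measured 8.5 to 9.1 at 1 dps and 6.3 to 6.7 at 7 dps. With vehicle/ACS it measured 8.0 to 8.8 and 9.1 to 9.2. The reason for the lower no sponge level was not tested. For all 3 genes the effect seen at 7 dps was larger than that at 1 dps by more than the spread between arrays.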

How the data were processed

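Total RNA of rat DRG was labelled and hybridized by the authors to Illumina BeadChips (Rat Ref-12, per the paper). The deposited table holds, for each array, the raw bead intensity of each probe and its detection p-value, exported from GenomeStudio; a second deposited table of intensities, background-subtracted and quantile-normalized by the authors over all arrays, was used to check the columns and refitted as an alternative. Intensities were background-corrected with neqc (limma 3.58.1, R 4.3.3; with the negative controls derived from the detection p-value columns, offset 16), quantile-normalized over the 12 arrays and tested on the log2 scale with lmFit and eBayes (trend, 3 groups, 9 residual degrees of freedom); p-values were adjusted by Benjamini and Hochberg within each comparison. Time and interaction contrasts came from a fit of all 33 arrays in 9 groups. The number of arrays limits the precision. Nothing states whether labelling or hybridization was done in batches.

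Named genes are those of the paper, the genes past the threshold, the 5 highest and 5 lowest without overlap, the most variable, list members of lowest p and the leading time differences, plus a few chosen after their values were seen (Wls, Tgfbr3, Oasl2 beside the interferon list, Per2, Car4, Commd6, Lancl1). The brightest kept probe stands for a gene. Lists and members were chosen with earlier results of these data known. The fit was tested on simulated data. Other backgrounds, offsets, filters, tests and left-out arrays were tried. No sequence is shown.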

Additional observations from a re-analysis of the deposited data

Results flagged for a closer look

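Groups of 4 arrays at 1 dps in which the highest or lowest array stood apart from the other 3 beyond Dixon's 95% limit were looked for in 348 groups of lists and named genes. They were 29. Chance gives about 1 in 20 groups, and 11 of the 29 were of genes named for their large within-group standard deviation, so that no excess can be read from this number. The level is given with the range of the other 3 arrays of its group. No sponge replicate 1 stood apart with Ggcx at 5.09 (others 8.48 to 8.70). No sponge replicate 2 stood apart with Spock2 at 11.76 (others 8.55 to 8.77). No sponge replicate 3 stood apart with Farp1 at 4.99 (others 5.81 to 5.90). No sponge replicate 4 stood apart with Id1 at 8.20 (others 7.85 to 7.90), Car4 at 4.59 (others 5.77 to 5.99), Tnnc2 at 6.35 (others 5.67 to 5.78), Ggact at 5.70 (others 7.78 to 8.15) and Ifi44 at 8.12 (others 5.66 to 5.84). The array of rhBMP-2/ACS replicate 1 stood apart with the respiratory chain list at 11.51 (others 11.44 to 11.45). The array of rhBMP-2/ACS replicate 3 stood apart with the macrophage and monocyte list at 7.71 (others 7.21 to 7.28), the skeletal muscle list at 7.50 (others 6.37 to 6.44), Prg4 at 9.04 (others 7.37 to 7.59), Hamp at 9.17 (others 7.46 to 7.64), Tnnc2 at 8.31 (others 5.53 to 5.82), Ggcx at 5.14 (others 8.56 to 8.74) and Spock2 at 12.34 (others 8.71 to 8.83). The array of rhBMP-2/ACS replicate 4 stood apart with Mx2 at 7.66 (others 8.24 to 8.28) and Rpl30 at 10.91 (others 5.84 to 6.04). Vehicle/ACS replicate 1 stood apart with Ggcx at 5.21 (others 8.64 to 9.23) and Eprs1 at 7.96 (others 5.76 to 6.03). Vehicle/ACS replicate 2 stood apart with the BMP ligands, receptors and Smads list at 7.06 (others 6.94 to 6.95), Mx1 at 7.39 (others 8.19 to 8.31), Degs2 at 5.54 (others 5.94 to 5.97) and Ifi44 at 8.24 (others 5.72 to 6.04). Vehicle/ACS replicate 3 stood apart with the neutrophil and granulocyte list at 6.16 (others 5.80 to 5.81), Camp at 5.51 (others 5.18 to 5.23) and Car4 at 5.12 (others 4.65 to 4.72). Vehicle/ACS replicate 4 stood apart with Aspn at 5.42 (others 6.25 to 6.39) and Crh at 7.61 (others 4.53 to 4.68). Of the 29, 7 lay in rhBMP-2/ACS replicate 3.

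The effect of a treatment at 1 dps differed from the same effect on a later day in 21 cases among the named genes, by an interaction term in the fit of all 33 arrays. The Serpine2 effect differed by -2.08 for vehicle/ACS against no sponge (from -1.16 at 1 dps and 0.92 at 7 dps, adjusted p = 0.00104) and -1.79 for rhBMP-2/ACS against no sponge (from -1.33 at 1 dps and 0.45 at 7 dps, adjusted p = 0.0119). The Cxcl10 effect differed by -2.22 for rhBMP-2/ACS against vehicle/ACS (from -0.52 at 1 dps and 1.70 at 3 dps, adjusted p = 0.0126), -1.89 for vehicle/ACS against no sponge (from -0.10 at 1 dps and 1.79 at 7 dps, adjusted p = 0.00605), -2.63 for rhBMP-2/ACS against no sponge (from -0.62 at 1 dps and 2.01 at 3 dps, adjusted p = 0.0085) and -1.91 for rhBMP-2/ACS against no sponge (from -0.62 at 1 dps and 1.29 at 7 dps, adjusted p = 0.0149). The RatNP-3b effect differed by -3.11 for vehicle/ACS against no sponge (from -1.65 at 1 dps and 1.46 at 7 dps, adjusted p = 0.0432). The Bcas2 effect differed by 0.92 for vehicle/ACS against no sponge (from 0.48 at 1 dps and -0.44 at 7 dps, adjusted p = 0.00404). The Gfap effect differed by -1.97 for rhBMP-2/ACS against vehicle/ACS (from 0.21 at 1 dps and 2.19 at 3 dps, adjusted p = 0.0439). The Upp1 effect differed by -1.65 for rhBMP-2/ACS against vehicle/ACS (from 0.26 at 1 dps and 1.91 at 3 dps, adjusted p = 0.039). The Degs2 effect differed by -1.07 for rhBMP-2/ACS against no sponge (from -0.54 at 1 dps and 0.52 at 7 dps, adjusted p = 0.00893). The Npy effect differed by -2.72 for vehicle/ACS against no sponge (from 0.47 at 1 dps and 3.19 at 7 dps, adjusted p = 0.000587) and -2.63 for rhBMP-2/ACS against no sponge (from 0.41 at 1 dps and 3.04 at 7 dps, adjusted p = 0.0017). The Vip effect differed by -3.29 for vehicle/ACS against no sponge (from 0.12 at 1 dps and 3.41 at 7 dps, adjusted p = 0.00218) and -3.04 for rhBMP-2/ACS against no sponge (from 0.27 at 1 dps and 3.31 at 7 dps, adjusted p = 0.0119). Vip without a sponge was close to background on both days. The Per2 effect differed by -3.14 for vehicle/ACS against no sponge (from -0.50 at 1 dps and 2.64 at 7 dps, adjusted p = 5.1e-08), -1.40 for rhBMP-2/ACS against no sponge (from -0.40 at 1 dps and 1.01 at 3 dps, adjusted p = 0.0284) and -3.09 for rhBMP-2/ACS against no sponge (from -0.40 at 1 dps and 2.69 at 7 dps, adjusted p = 7.76e-08). The Wls effect differed by -0.52 for rhBMP-2/ACS against no sponge (from -0.40 at 1 dps and 0.12 at 7 dps, adjusted p = 0.0304). The Tgfbr3 effect differed by -1.17 for rhBMP-2/ACS against no sponge (from -0.52 at 1 dps and 0.65 at 3 dps, adjusted p = 0.0317). The Hamp effect differed by -2.17 for vehicle/ACS against no sponge (from -0.09 at 1 dps and 2.08 at 7 dps, adjusted p = 0.0401). The comparisons of 1 gene share control arrays and are not independent of each other.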

How the results depend on the processing

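At 1 dps the values rest on 4 arrays a group, with a median half-width of the 95% interval of 0.23 on the log2 scale. No counts of beads were used, and the headers name no BeadChip or position, so that neither could be set as a block. The 99 named gene and list values were recomputed under the alternatives that keep all arrays. In 885 combinations of value and alternative a gene kept its direction and its side of the threshold, or a list median its sign and rough size. Most genes had not passed for a treatment at 1 dps, so that a kept side shows little. In 3 combinations a list median moved. In 4 the call was lost, all of Serpine2: -1.16 and -1.33 in the fit of all 33 arrays (adjusted p = 0.452 and 0.133), and adjusted p = 1.00 and 0.691 in an unmoderated test with unequal variances, whose cause was not tested. The median of the granulocyte list between vehicle/ACS and no sponge was -0.76 without background correction, -0.66 at an offset of 50 and -0.45 for probes detected at p below 0.01 on every array of a group, and -1.25 to -0.40 with an array left out.

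At an adjusted p below 0.05 the count for vehicle/ACS and for rhBMP-2/ACS against no sponge was 0 in the fit of all 33 arrays and 0 in the unmoderated test, and 2 for rhBMP-2/ACS against no sponge when those 2 groups were fitted alone. At the thresholds of the study the counts for rhBMP-2/ACS against vehicle/ACS, vehicle/ACS against no sponge and rhBMP-2/ACS against no sponge were 8, 16 and 8 without background correction, 9, 15 and 10 at an offset of 50, and 4, 11 and 9 in the unmoderated test. The effect of rhBMP-2/ACS against no sponge differed between 1 and 3 dps for 65 probes with medians equalized in place of quantiles and 60 with no detection filter, and between 1 and 7 dps for 212 with medians equalized and 291 with array weights. That of rhBMP-2/ACS against vehicle/ACS differed between 1 and 3 dps for 86 probes with no filter, and that of vehicle/ACS against no sponge between 1 and 7 dps for 659 with array weights. The difference in detected probes turned to 47.25 for rhBMP-2/ACS against vehicle/ACS and to -357.25 for vehicle/ACS against no sponge at a detection p below 0.01.

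Each array held 1 rat, so that equal replicate numbers in different treatments could not mark shared animals. Of 12 pairs of arrays with the same number 2 had deviations correlated above 0.1 (range -0.188 to 0.24), and 4 of 12 arrays correlated best with their own number. Whether the numbers mark a shared step of processing cannot be told from these values. With the replicate number as a block no count at an adjusted p of 0.05 moved at 1 dps, while the effect of rhBMP-2/ACS against no sponge differed from that at 3 dps for 195 probes and from that at 7 dps for 138.

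With each array left out in turn, the counts at an adjusted p below 0.05 ranged from 0 to 1 for rhBMP-2/ACS against vehicle/ACS, from 1 to 2 for vehicle/ACS against no sponge and from 1 to 3 for rhBMP-2/ACS against no sponge. Without rhBMP-2/ACS replicate 2 the added gene was Lancl1, for the first (-0.88, adjusted p = 0.00185) and the third (-0.64, adjusted p = 0.0365). Without no sponge replicate 4 Commd6 was added for the third, with a positive difference (0.76, adjusted p = 0.0125). Car4, a carbonic anhydrase, was added without that array for the second (-1.10, adjusted p = 0.00517) and the third (-1.14, adjusted p = 0.00347). Car4 was not above background on any sponge array, so that its differences are not measured folds. The interaction counts ranged from 16 to 216 (rhBMP-2/ACS against vehicle/ACS, 3 dps), 23 to 187 and 52 to 109 (rhBMP-2/ACS against no sponge, 3 and 7 dps) and 199 to 410 (vehicle/ACS against no sponge, 7 dps). The difference of Ptgs2 between rhBMP-2/ACS and vehicle/ACS ranged from -0.18 to 0.56. The within-group minus between-group correlation ranged from -0.0007762 to 0.0003759, from -0.0005018 to 0.0009069 and from 0.0004224 to 0.001304 for rhBMP-2/ACS against vehicle/ACS, vehicle/ACS against no sponge and rhBMP-2/ACS against no sponge, and the difference in detected probes from -222 to 14.9, from -74.7 to 163 and from -144 to 46.3.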
